A study of Mus musculus with 19 samples.

Results

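Loss of Fabp7 was examined at the point at which a mouse reaches its electroshock seizure threshold, by comparing bulk brain RNA of Fabp7 knockout (KO) mice with that of wild-type (WT) mice that had gone through the same test. The comparison rests on 10 of the 19 libraries of the series, 5 KO MEST and 5 WT MEST mice, chosen by their genotype and treatment labels alone. MEST stands for maximal electroshock seizure threshold: a mouse received 1 ear-clip shock a day, starting at 20 mA and raised by 2 mA a day, until both hind limbs went into tonic extension, and it was killed then. The other 9 libraries came from sham mice, handled alike but never shocked (4 KO sham and 5 WT sham), and serve here as the reference for whether a genotype difference was also seen without seizures. All mice were males of C57BL/6NJ background tested at ZT20, in the dark phase. The tissue was a block of hippocampus and overlying cortex from 1 hemisphere. The WT MEST mice were 17.4 to 18.0 weeks old, the KO MEST mice 18.9 to 19.4, the WT sham mice 15.9 to 16.3 and the KO sham mice 17.3 to 17.9. The ages of the KO and WT mice do not overlap within either treatment, so that genotype and age cannot be told apart. Within each genotype the MEST mice were older than the sham mice, also without overlap, so that treatment and age cannot be told apart either. The labels name neither the KO allele nor the number of shocks that each mouse received.

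FABP7, the brain-type fatty acid binding protein, is a small cytosolic chaperone that carries polyunsaturated fatty acids and related ligands. It is made by radial glia during development and, in the adult, by astrocytes and neural stem cells. Seizures switch on immediate early genes in neurons within minutes, among them the transcription factors Fos, Npas4 and Egr1 and the synaptic protein Arc, and these transcripts decay over the following hours. A brain block at ZT20 therefore carries the resident cell types, their activity state and the time of day together.

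Levels are given as CPM, reads in genes scaled to the same total in each library with a further scaling factor (TMM), and differences as log2 fold changes of KO over WT on log2(CPM + 0.1), which understate changes of genes near 0. A gene was called changed at an adjusted p under 0.05 (limma, Benjamini-Hochberg over all genes tested). The WT MEST libraries held 30340554 to 38490146 reads in genes and the KO MEST libraries 34401284 to 51741037. Of 16061 genes tested, 907 were higher and 686 lower in KO MEST mice, which is 9.92% of the genes tested in either direction, 5.65% higher and 4.27% lower. The differences were small: the median absolute log2 fold change of a called gene was 0.28 (10th to 90th percentile 0.19 to 0.53), and 17 higher and 14 lower genes changed more than 2-fold. In 1394 genes, 8.68% of those tested, all 5 KO mice lay on 1 side of all 5 WT mice. The first principal component of the 10 libraries, with 25.6% of the variance, separated the genotypes. The number of calls rested on single mice: of 1593, 1018 were made without WT MEST replicate 1 and 928 without WT replicate 4. Without KO replicates 2, 3 and 5 in turn, 799, 917 and 930 were made. Without KO replicates 3 and 5 together, which stood apart in some of the activity genes described below, 264 were made. This pair was chosen after the data were seen and leaves 3 KO mice. No other pair was left out, so that its part cannot be told from the smaller group, here and in the list counts below. Of the 122 called genes named here, 37 lost their call in at least 1 fit without a single mouse, and 23 in 5 or more of the 10 such fits. The 23 were Mcm9, Pln, Hk1, Slc4a5, Gabrb2, Gabrg1, Plk3, Trib1, Fbxo33, Bmpr1b, Cx3cr1, Kl, Fezf2, Ndnf, Npnt, Pou3f1, Cpne7, Timp1, Kcnc2, Cacnb1, Dhcr7, Mbnl2 and Col8a1. All 24 astrocyte and all 17 oligodendrocyte markers, all 16 markers of excitatory neurons and all 10 markers of the dentate gyrus were detected. So were all 14 markers of striatal and thalamic neurons, so that detection alone does not mark the block. Of the blood cell genes, the haemoglobin genes were under 0.2 CPM, while Alas2 was at 2.69 CPM in WT and 3.73 CPM in KO MEST mice. Values of multi-copy genes may depend on mapping settings that are not given.

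Fabp7 itself checked the labels. Its level was 14.1, 15.6, 13.6, 18.0 and 12.7 CPM in the 5 WT MEST mice and 0, 0.0820, 0.0877, 0.0272 and 0.0195 CPM in the 5 KO MEST mice. Every KO library was near 0, the log2 fold change was -6.73 (SE 0.20, adjusted p = 1.63e-13), and the 4 KO sham libraries were near 0 too (0.145, 0.108, 0.0515 and 0.197 CPM). The level in WT mice did not separate by treatment (14.8 ± 2.10 CPM in MEST and 13.1 ± 1.73 CPM in sham mice, SD, n = 5 each). The gene lies at chr10:57784881-57788450 (mm10, plus strand). Its promoter and those of 2 activity genes whose levels differed between individual KO mice, Npas4 and Fos, are shown for reference. They run from 250 bases before to 50 after the annotated start (RefSeq, GRCm38.p6), with the letters TGACG, the core of the site for the activity-regulated factor CREB, in capitals where they occur on either strand.
Fabp7, chr10:57784673-57784972, plus strand: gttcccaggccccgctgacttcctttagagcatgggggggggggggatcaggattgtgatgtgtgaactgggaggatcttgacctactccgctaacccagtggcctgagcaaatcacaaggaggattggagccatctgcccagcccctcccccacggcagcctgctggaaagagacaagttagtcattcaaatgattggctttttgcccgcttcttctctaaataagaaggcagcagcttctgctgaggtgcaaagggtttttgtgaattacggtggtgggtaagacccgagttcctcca
Npas4, chr19:4989922-4990221, minus strand: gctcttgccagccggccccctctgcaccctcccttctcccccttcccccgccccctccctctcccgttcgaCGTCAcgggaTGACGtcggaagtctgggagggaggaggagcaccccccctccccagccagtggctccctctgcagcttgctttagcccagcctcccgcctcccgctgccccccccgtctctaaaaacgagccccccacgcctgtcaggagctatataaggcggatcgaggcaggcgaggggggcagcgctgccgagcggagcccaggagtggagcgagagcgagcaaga
Fos, chr12:85473640-85473939, plus strand: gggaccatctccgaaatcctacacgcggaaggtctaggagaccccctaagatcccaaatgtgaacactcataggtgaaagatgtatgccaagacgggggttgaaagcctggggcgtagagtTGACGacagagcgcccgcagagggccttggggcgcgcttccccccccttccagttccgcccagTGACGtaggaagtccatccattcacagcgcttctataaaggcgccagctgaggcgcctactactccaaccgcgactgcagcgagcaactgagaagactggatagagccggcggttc
TGACG occurred 2 times in the Npas4 window, starting 179 and 169 bases before the start, 2 times in the Fos window, 129 and 66 bases before it, and 0 times in the Fabp7 window, and 20.8% of the 32851 promoter windows of the reference hold it. A match describes these letters and is not a measured binding site.

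**Figure D1:**
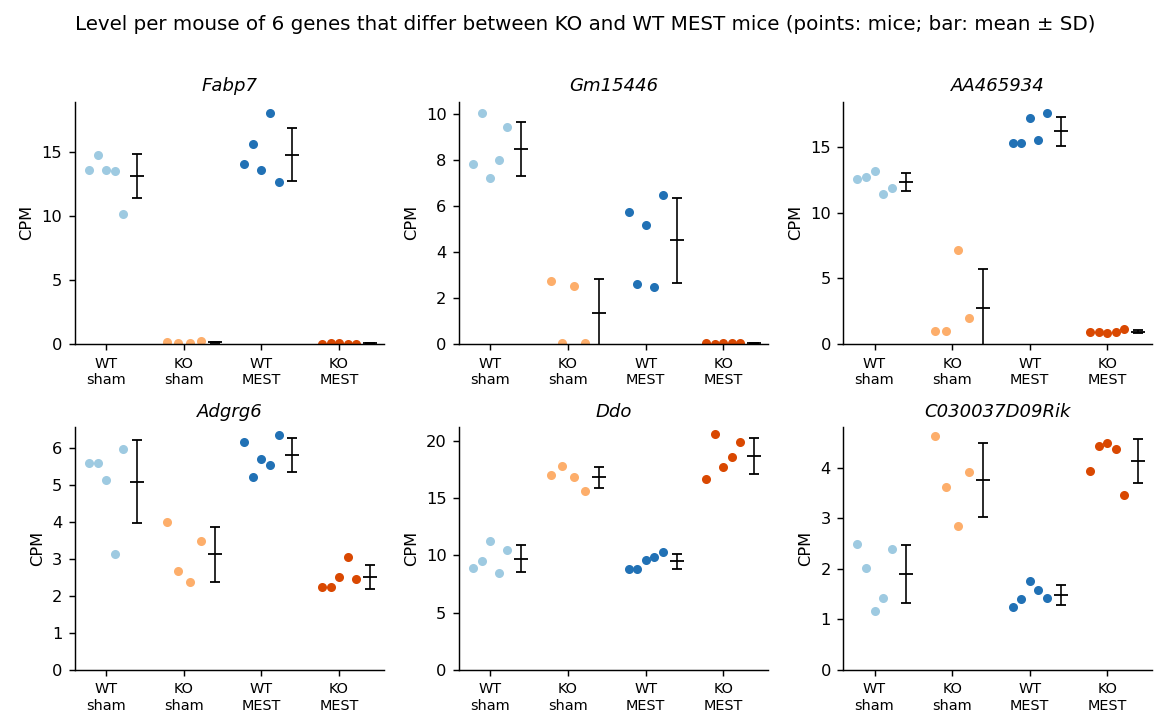
Level of 6 genes in every mouse, in CPM on a linear axis that starts at 0, by genotype and treatment; each point is a mouse and the bar is the mean with its SD, drawn down to 0 where it would reach below. In the KO MEST group Fabp7, Gm15446 and AA465934 sit at or near 0, Adgrg6 at 2.23 to 3.05 CPM against 5.22 to 6.34 CPM in WT MEST mice, and Ddo and C030037D09Rik above every WT MEST mouse.

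Apart from Fabp7, the steepest falls were in 2 little-studied loci. Gm15446, a predicted protein-coding gene on chromosome 5, was at 5.74, 2.63, 5.19, 2.48 and 6.49 CPM in WT MEST mice and at 0.0274, 0, 0.0292, 0.0272 and 0.0390 CPM in KO MEST mice (log2 fold change -5.11, SE 0.27). The WT mice themselves were uneven, with replicates 2 and 4 at less than 3 CPM, and the KO sham mice were split, with 2.75, 0.0215, 2.52 and 0.0492 CPM in replicates 2 to 5. AA465934, a noncoding transcript on chromosome 11, fell from 15.3, 15.3, 17.2, 15.6 and 17.6 CPM to 0.876, 0.943, 0.818, 0.925 and 1.11 CPM (log2 fold change -3.98, SE 0.11). It was low in 3 of the 4 KO sham mice and at 7.13 CPM in KO sham replicate 4, between the other KO and the WT mice. Both transcripts thus differed between mice of 1 genotype as well as between genotypes.

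The other large falls included genes of secreted and surface proteins. Adgrg6, an adhesion G protein-coupled receptor needed for myelination by Schwann cells, was at 6.16, 5.22, 5.71, 5.53 and 6.34 CPM in WT MEST mice and at 2.25, 2.23, 2.51, 3.05 and 2.46 CPM in KO MEST mice, with no overlap (log2 fold change -1.19, SE 0.12, adjusted p = 2.74e-05). Nog, which encodes the BMP antagonist noggin, fell by 0.84 on the log2 scale, and Metrn, which encodes the secreted glial factor meteorin, fell by 0.72. Folh1 encodes glutamate carboxypeptidase II, the enzyme that releases glutamate from N-acetylaspartylglutamate. It was at 21.9 to 28.6 CPM in WT and at 11.5 to 19.5 CPM in KO MEST mice (-0.71, SE 0.11), and it was low in KO sham mice too (-1.01, adjusted p = 9.61e-05). Rpl22l1, a paralogue of a ribosomal protein, was at 52.1, 46.6, 49.5, 50.8 and 54.3 CPM against 28.5, 25.6, 30.2, 29.6 and 24.4 CPM (-0.87, SE 0.068, adjusted p = 1.03e-06). In sham mice its difference was 0.16 (adjusted p = 0.267), and the effect of genotype differed between MEST and sham mice (difference -1.03, adjusted p = 9.56e-07). The rest of the 15 largest decreases were 1110001J03Rik, 2410006H16Rik, Coa6 (assembly of cytochrome c oxidase), Cenpw (kinetochore), Atp5e (a subunit of ATP synthase), Map3k15 (a kinase) and Gm561, with log2 fold changes between -0.87 and -0.60.

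The largest increases were led by genes at low levels. C030037D09Rik, an intergenic noncoding RNA on chromosome 11, was at 1.24, 1.40, 1.76, 1.59 and 1.42 CPM in WT and at 3.94, 4.43, 4.50, 4.38 and 3.47 CPM in KO MEST mice (1.42, SE 0.14, adjusted p = 1.81e-05). Ssc5d, a secreted scavenger receptor, and F2rl2, a protease-activated receptor, rose by 1.07 and 1.05. Ddo encodes D-aspartate oxidase, which degrades D-aspartate, an agonist of NMDA receptors. Its level was 8.77, 8.85, 9.57, 9.84 and 10.3 CPM in WT and 16.7, 20.6, 17.7, 18.6 and 19.9 CPM in KO MEST mice, a rise of 0.97 (SE 0.08, adjusted p = 2.15e-06) that also passed the test in sham mice (0.79, adjusted p = 9.02e-05). Tnnc1 (slow troponin C), Col6a1 (a chain of collagen VI), Ccdc151 (docking of ciliary dynein), Adat2 (a tRNA deaminase), Tmem150a, Reep6, Fxyd5 (a regulator of the sodium pump), Moxd1 (a monooxygenase), Crabp2 (a carrier of retinoic acid), Gpnmb (a glycoprotein of phagocytes) and Sbsn followed, with rises of 0.90 to 0.66. Slfn8, of the Schlafen family, was below the level that the list of largest changes required and is named after its values were seen: it was at 0.652, 0.153, 0.233, 0.199 and 0.415 CPM in WT and 1.73, 1.21, 1.05, 1.85 and 1.81 CPM in KO MEST mice (2.01, adjusted p = 9.21e-04). Its close relatives share sequence with it, so that reads may have been assigned among them.

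Many of the largest changes lay on the chromosome of the targeted gene. Of the 30 largest, 8 were on chromosome 10, namely Moxd1, Reep6, Adat2, Col6a1 and Ddo, which rose, and Fabp7, Adgrg6 and Cenpw, which fell, whereas chromosome 10 held 4.73% of the genes tested. Another 4 were on chromosome 11, C030037D09Rik, AA465934, Nog and 2410006H16Rik, and 4 were on chromosome 7. These 2 chromosomes held 8.05% and 7.56% of the genes tested. Within 10 Mb of Fabp7, however, 5 of 94 genes tested were called (5.32%), against 76 of 666 on the rest of the chromosome (11.4%) and 9.88% on all other chromosomes. The 4 besides Fabp7 were small changes: Pln (-0.47), which encodes phospholamban, Mcm9 (-0.35), a helicase of DNA repair, Ado (-0.21), a thiol dioxygenase, and Hk1 (0.18), a hexokinase. The share near Fabp7 depended on the setting: 10 genes there were called with the GC trend removed or with DESeq2 and 12 with the GC and length trends removed. The count was 2 to 7 when single mice were left out, and the calls of Pln, Mcm9 and Hk1 were each lost in 8 of these 10 fits. These counts are descriptions of position.

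Within its own family, the fall of Fabp7 was joined by no other. Of 14 genes for fatty acid binding proteins and their retinoid-binding relatives, 6 passed the filter on low values, of which 3 rose and Fabp7 alone fell. Fabp3, the heart-type protein of neurons, was at 66.1, 58.9, 64.8, 63.9 and 62.6 CPM in WT and 77.8, 78.7, 76.5, 72.8 and 66.8 CPM in KO MEST mice, with no overlap (0.23, SE 0.056, adjusted p = 0.0161). In sham mice it fell by 0.64 (adjusted p = 0.0011), and its effect of genotype differed between the treatments by 0.88 (adjusted p = 9.85e-06). Fabp5, the epidermal-type protein, was at 102, 89.5, 86.4, 87.0 and 88.7 CPM and 101, 135, 98.3, 96.4 and 107 CPM and did not pass (0.24, 95% interval 0.069 to 0.41, adjusted p = 0.0689). Crabp2, which delivers retinoic acid to its nuclear receptor, rose by 0.69 from 1.48 to 1.99 to 2.11 to 3.77 CPM. Crabp1, its relative, was at 0.652 to 1.30 and 0.759 to 1.28 CPM.

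Of 34 PPAR targets and genes of fatty acid oxidation tested, 0 rose and 1 fell, Hadhb of the mitochondrial trifunctional protein (-0.23). Of 25 genes of lipid droplets and triglyceride turnover 1 rose, Bscl2, which encodes seipin (0.23, 64.0 to 72.1 CPM in WT and 76.6 to 86.5 CPM in KO MEST mice). Of 21 genes of fatty acid synthesis and desaturation, Fads2, the delta-6 desaturase, rose by 0.31 and Elovl7, an elongase, fell by 0.39. Of 25 genes of cholesterol synthesis 3 rose, Pmvk (0.30), Fdft1 (0.22) and Dhcr7 (0.22), a count that became 1 without WT replicate 4 and 0 without KO replicate 2 or without KO replicates 3 and 5 together. The shares called were 2.94%, 4%, 9.52% and 12%, beside 9.92% of all genes. Of 19 endocannabinoid and prostaglandin genes 0 were called (limma), 4 had an unadjusted p under 0.05, and edgeR called 0 and DESeq2 1.

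Of the cell type lists, that of mature oligodendrocytes had the largest share of called members. Of 17 markers tested, 9 fell and 0 rose (52.9%, beside 4.27% lower among all genes), with a median log2 fold change of -0.22 against 0.0016 over all genes. Tspan2, a tetraspanin of myelin, was at 201, 214, 174, 192 and 192 CPM in WT and 146, 139.8, 152, 171 and 156 CPM in KO MEST mice. All KO mice lay below all WT mice (-0.35, SE 0.063, adjusted p = 0.00372). Ugt8a, which makes galactosylceramide, fell by 0.31, and Aspa, which cleaves N-acetylaspartate, fell by 0.35. In sham mice Tspan2 differed by -0.029 (adjusted p = 0.834) and Ugt8a rose by 0.20 (adjusted p = 0.0302). The effect of genotype on Tspan2, Ugt8a and Aspa differed between MEST and sham mice by -0.32, -0.51 and -0.49, each past the threshold. In sham mice 2 markers rose and 4 fell, where 15.4% of all genes were called. The summed level of the 17 genes was 7502 to 9955 CPM in WT and 7152 to 7791 CPM in KO MEST mice, so that the sums overlap. Between 7 and 9 of the markers fell when single mice were left out, and 3 when KO replicates 3 and 5 were left out together. In bulk tissue, fewer cells of a type and less RNA per cell cannot be told apart.

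Of 24 markers of astrocytes, the main adult source of FABP7, 0 rose and 3 fell, a share of 12.5% that was close to the 9.92% of all genes. Slc4a4, the sodium bicarbonate cotransporter of astrocytes, was at 201, 203, 208, 212 and 184 CPM in WT and 151, 146, 153, 187 and 169 CPM in KO MEST mice (-0.33, adjusted p = 0.00638). The groups overlapped only through KO replicate 4, at 187 CPM against a lowest WT value of 184 CPM. The zinc transporter Slc39a12 fell by 0.26 and the BMP receptor Bmpr1b by 0.21. The summed level of the 24 markers was 7878 to 8485 CPM in WT and 7688 to 8331 CPM in KO MEST mice. Of 22 genes by which astrocytes handle glutamate, potassium and water, 2 fell (9.09%), among them Slc12a2. Of 27 genes of reactive astrocytes 1 rose, Timp1, an inhibitor of metalloproteinases, at 0.228, 0.0611, 0.182, 0.265 and 0.267 CPM in WT and 0.329, 2.09, 0.380, 0.490 and 0.566 CPM in KO MEST mice (1.29, adjusted p = 0.0465), with KO replicate 2 far above the rest. This call, 3.70% of its list, was lost in 9 of 10 fits without single mice and with pseudocounts of 0.5 or 1 CPM.

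Microglial markers went both ways, with 3 higher and 3 lower of 17 (35.3% called, beside 9.92% of all genes). C1qa and C1qb, chains of complement C1q, rose by 0.43 and 0.29, and Selplg, a selectin ligand, by 0.32. Gpr34, a lysophosphatidylserine receptor, fell by 0.43, from 14.4 to 20.5 CPM to 11.5 to 13.0 CPM, and Cx3cr1, the fractalkine receptor, fell by 0.19. The 3 higher became 1 without WT replicates 1 or 4 or KO replicate 2, and the 3 lower became 1 without KO replicate 5 and 0 without KO replicates 3 and 5 together. The summed level of these markers was 551 to 619 CPM in WT and 544 to 617 CPM in KO MEST mice. Of the vascular lists, the pericyte gene Rgs5 fell by 0.40 (40.2 to 44.6 to 27.1 to 36.8 CPM), and the endothelial genes Slco1a4, a transporter of the blood-brain barrier, and Itm2a fell by 0.30 and 0.20. Islr and Col1a1, of the leptomeningeal fibroblast list, rose by 0.49 and 0.43. Shares called were 10% of the list that holds Rgs5, 13.3% of the endothelial and 16.7% of the leptomeningeal fibroblast markers. All 12 choroid plexus markers had a log2 fold change below 0 (median -0.39) and 2 passed the test, Slc4a5 (-0.51), a bicarbonate transporter, and Kl (-0.29), the ageing-related klotho. This count moved with single mice, to 6 without WT MEST replicate 1, 5 without KO replicate 4, 1 without KO replicate 2 and 0 without WT replicates 2, 4 or 5 or KO replicates 3 or 5. Their summed level was 1158 to 1963 CPM in WT and 1071 to 1488 CPM in KO MEST mice. Shares called were 16.7% of these markers and 10% of those of oligodendrocyte precursors. Of 10 markers of oligodendrocyte precursors 1 rose, C1ql1 (0.65), of 8 ependymal markers 0 were called (limma; 1 at an unadjusted p under 0.05, 0 by edgeR and 1 by DESeq2), and 2 of 8 blood cell genes were high enough to be tested, of which 0 were called (1 unadjusted, 0 by edgeR and by DESeq2).

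**Figure D2:**
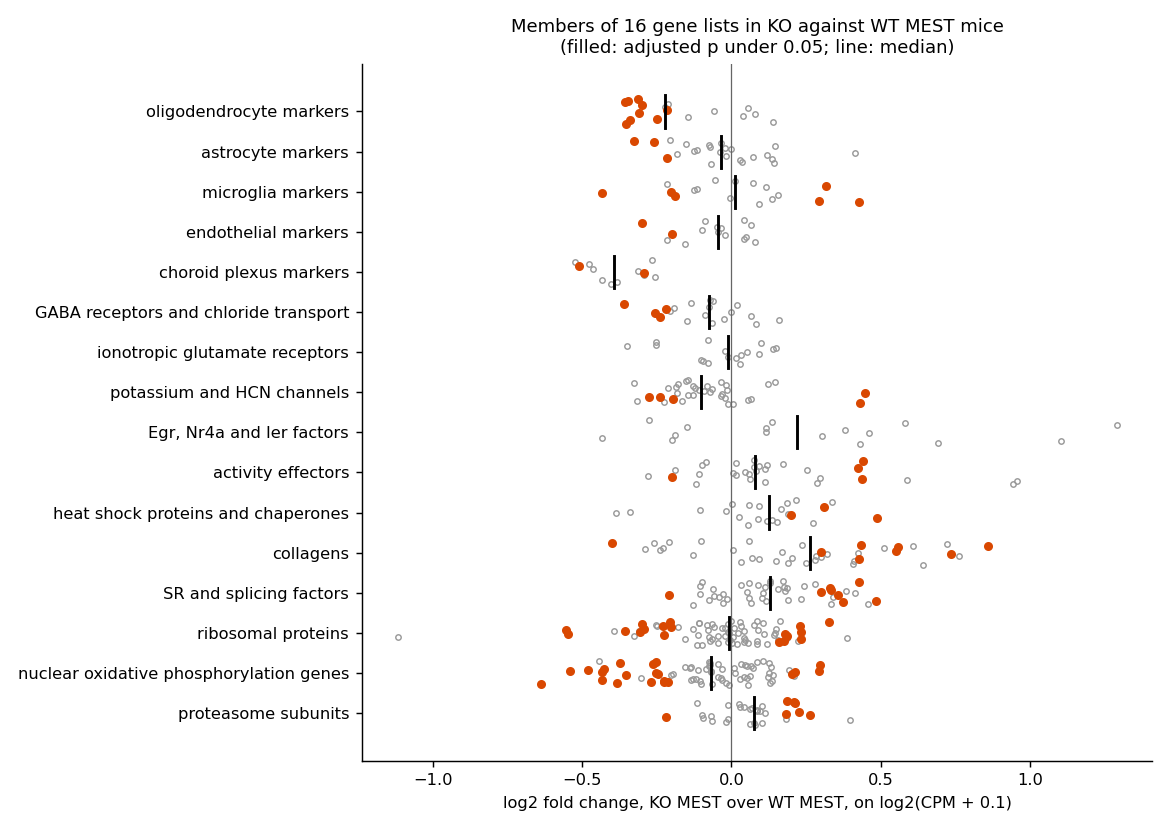
Log2 fold change of KO over WT MEST mice for each tested member of 16 gene lists, 1 row per list; filled points passed the test, open points did not, and the vertical mark is the list's median. The 9 called oligodendrocyte markers all lie left of 0, 7 of the 8 called collagens right of 0, and the ribosomal protein and oxidative phosphorylation genes lie on both sides.

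Of 16 markers of excitatory neurons 3 rose, Slc17a7, the vesicular glutamate transporter of cortical neurons (0.28), and the transcription factors Neurod6 (0.30) and Fezf2 (0.26), and 0 fell (18.8%, beside 5.65% higher among all genes). The call of Fezf2 was lost in 6 of 10 fits without single mice. Of 16 markers of inhibitory neurons, Npy and Lhx6 rose and Gad1 and Ndnf fell (25% called, beside 9.92% of all genes). Npy encodes neuropeptide Y, which is released by interneurons and by dentate granule cells after seizures and dampens glutamate release. Its level was 50.2, 57.5, 52.9, 45.1 and 52.1 CPM in WT and 86.7, 98.3, 64.5, 77.9 and 71.1 CPM in KO MEST mice. Every KO mouse was above every WT mouse (0.62, SE 0.098, adjusted p = 0.00279). In sham mice its difference was 0.23 (adjusted p = 0.0838) and the difference between the treatments did not pass (0.39, adjusted p = 0.0631). Npy alone passed among 18 neuropeptide genes (5.56%, beside 9.92% of all genes). That count became 3 higher without WT replicate 2, and 1 lower gene was called without KO replicate 1. Lhx6, a transcription factor of interneurons, rose by 0.36 (13.2 to 16.8 to 18.7 to 19.9 CPM). Gad1, the main enzyme of GABA synthesis, was at 511, 478, 453, 525 and 481 CPM and 439, 372, 404, 436 and 423 CPM (-0.24, SE 0.056, adjusted p = 0.0153). Of 10 markers of the dentate gyrus, Dsp, which encodes desmoplakin of granule cells, fell by 0.68 and Npnt by 0.22. Of 12 markers of CA1 to CA3, Wfs1, a marker of CA1, and Cpne7 rose by 0.50 and 0.60 and Pou3f1 fell by 0.32. Shares called were 20% of the dentate and 25% of the CA1 to CA3 markers. The summed level of the dentate markers was 458 to 508 CPM in WT and 435 to 491 CPM in KO MEST mice, and that of the CA1 to CA3 markers 1033 to 1158 and 1089 to 1276 CPM. Of 14 markers of striatal and thalamic neurons, regions outside the block as described, 0 were called by limma. At an unadjusted p under 0.05 there were 2, with 0 called by edgeR and 1 by DESeq2. Their sums were 1174 to 1653 CPM in WT and 1239 to 1507 CPM in KO MEST mice, and the source of these reads was not tested.

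Among genes that set excitability, 0 of 17 ionotropic glutamate receptor genes were called (limma; 3 at an unadjusted p under 0.05) and 0 of 7 metabotropic ones (0 unadjusted), as with edgeR and DESeq2. Of 19 genes of GABA receptors and chloride transport, 4 fell and 0 rose (21.1%, beside 4.27% lower among all genes). Slc12a2 encodes NKCC1, which loads cells with chloride. Its level was 121, 129, 128, 126 and 133 CPM in WT and 98.4, 91.9, 103, 106 and 97.1 CPM in KO MEST mice, the widest gap in the list (-0.36, SE 0.051, adjusted p = 9.05e-04). It was lower in KO sham mice too (-0.18, adjusted p = 0.0481), and oligodendrocytes and choroid plexus, whose markers are given above, also express it; their part was not tested. Gabra4, Gabrb2 and Gabrg1, subunits of the GABA-A receptor, fell by 0.24, 0.26 and 0.22. The count of 4 became 2 without WT replicate 4 or KO replicate 3, 1 without KO replicates 2 or 5 and 1 without KO replicates 3 and 5 together. Of 36 potassium and HCN channel genes, Kcnip3, a calcium-sensing partner of Kv4 channels also known as the repressor DREAM, rose from 109 to 148 to 147 to 195 CPM (0.45), and Hcn3, a pacemaker channel, rose by 0.43. Kcnc1, the Kv3 channel of fast-spiking neurons, fell by 0.28, Kcnc2 by 0.24 and Kcnab1 by 0.20. These 3 lower genes became 6 without KO replicate 4, 1 without WT replicates 1, 4 or 5 or KO replicate 2 and 0 without KO replicates 3 and 5 together, and the call of Kcnc2 was lost in 7 and that of Kcnab1 in 4 of 10 fits without single mice. Of 23 sodium and calcium channel genes 1 rose, the beta subunit Cacnb1 (0.23). Shares called were 13.9% of the potassium and HCN and 4.35% of the sodium and calcium channel genes, beside 9.92% of all genes.

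Some, but not most, activity-regulated transcription factors were high in 2 of the 5 KO MEST mice. The Fos and Jun list, which also holds Batf3 and Atf3, and the Egr, Nr4a and Ier list, which also holds Npas4, Btg2, Maff and Klf genes, had 24 genes tested. In 8 of these, KO replicates 3 and 5 were both above all other 8 MEST mice. The same count was not made over all genes tested. Since the pair was picked after the data were seen, the 8 describes these lists and does not set them apart from other genes. Npas4, a transcription factor that neurons switch on with calcium entry, was at 8.38, 7.48, 6.90, 5.07 and 5.81 CPM in WT MEST mice and at 9.89, 8.69, 33.3, 9.39 and 42.8 CPM in KO MEST mice. KO replicates 3 and 5 stood apart at 33.3 and 42.8 CPM, and the other 3 KO mice were just above the WT range. Although the groups did not overlap, the difference did not pass the test (1.29, SE 0.50, 95% interval 0.14 to 2.44, adjusted p = 0.142). Fos was at 12.5, 21.5, 20.0, 10.3 and 17.1 CPM in WT and 15.4, 16.7, 60.4, 16.4 and 53.7 CPM in KO MEST mice. Here the same 2 mice were high and the other 3 lay within the WT range (0.76, adjusted p = 0.353). Arc, named after its values were seen, was at 143, 173, 139, 104 and 128 CPM and 164, 232, 441, 174 and 407 CPM, again highest in KO replicates 3 and 5 (0.94, adjusted p = 0.0998). Egr1 and Egr2, zinc finger factors of the same early wave, and the antiproliferative Btg2 had the same pattern, with Egr1 at 202, 206, 479, 182 and 346 CPM in the 5 KO mice against 99.7 to 246 CPM in WT mice. Their relatives Egr3 and Egr4 did not share it. Egr3 was at 138, 104, 169, 129 and 152 CPM in the 5 KO mice against 119 to 244 CPM in WT mice (-0.20, adjusted p = 0.599), and Egr4 at 12.5, 6.38, 10.8, 4.46 and 7.02 CPM against 7.05 to 18.6 CPM (-0.43, adjusted p = 0.519). Junb was high in KO replicates 1, 3 and 5 (45.5, 22.7, 49.4, 20.2 and 44.9 CPM against 22.7 to 33.0 CPM in WT mice). Jund was at 119, 53.6, 53.1, 52.4 and 47.1 CPM in the 5 KO mice against 76.0 to 120.4 CPM in WT mice, so that KO replicate 1 lay within the WT range and the other 4 below it. Its difference did not pass (-0.64, adjusted p = 0.167) but did without KO replicate 1 (-0.88, adjusted p = 0.00137) and with the GC trend described below removed.

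Of 8 tested genes of the Fos and Jun list 0 were called (limma, with 1 at an unadjusted p under 0.05 and 0 by edgeR and DESeq2). Of 16 of the Egr, Nr4a and Ier list 0 were called, with a median log2 fold change of 0.22 (5 unadjusted, 0 by edgeR and 1 by DESeq2). Of 30 effectors of activity 3 rose, Dusp5, a phosphatase of ERK (0.44, 4.28 to 5.87 CPM in WT and 5.88 to 7.72 CPM in KO MEST mice), the kinase Plk3 (0.42) and the pseudokinase Trib1 (0.44), and 1 fell, Fbxo33 (-0.20). The share called was 13.3%, beside 9.92% of all genes. The rise of these effectors was lost with single mice: 1 was higher without WT replicate 1 or KO replicates 2 or 3 and 0 without KO replicate 5. Without KO replicates 3 and 5 together 0 were higher. Fos was at 54.3, 92.8, 80.2, 115 and 40.6 CPM in the 5 WT sham mice and at 41.0, 85.6, 51.5 and 33.4 CPM in the 4 KO sham mice. Every WT sham mouse was thus above every WT MEST mouse, while the KO sham and KO MEST mice overlapped. The genotype effect on Npas4 was -0.78 in sham mice (adjusted p = 0.0858) and differed between MEST and sham mice by 2.07 (adjusted p = 0.0239), and that on Egr1 differed by 1.40 (adjusted p = 0.0247). The time from the last shock to tissue collection is not given per mouse.

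**Figure D3:**
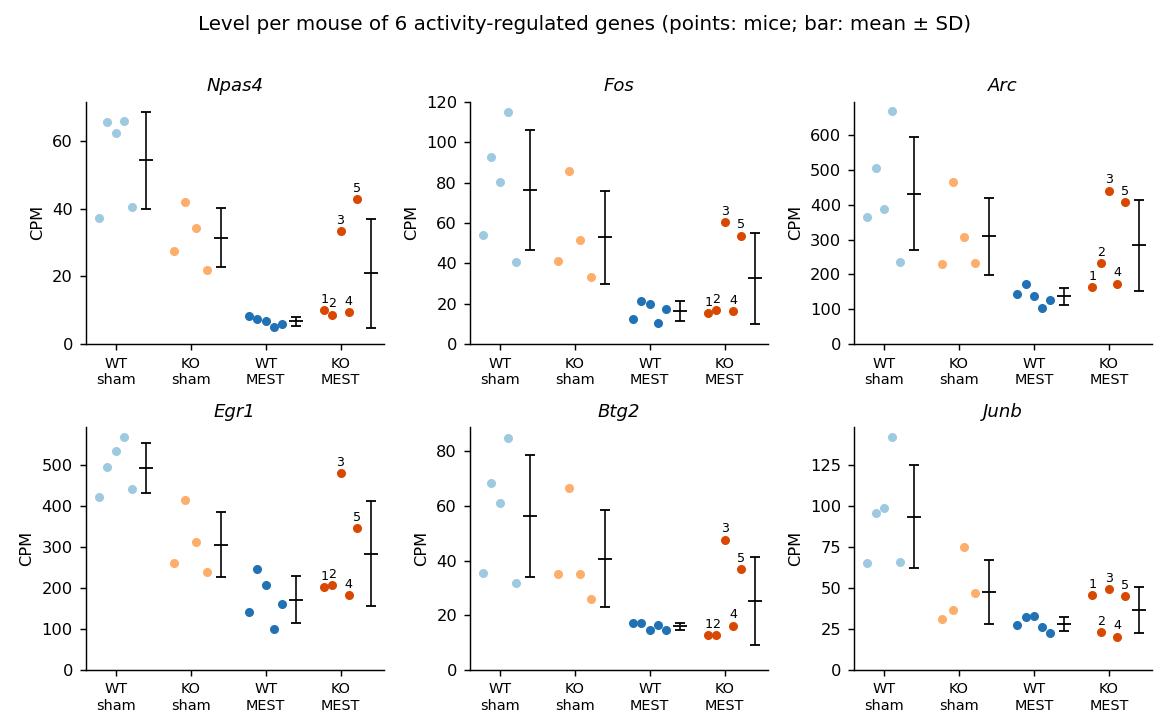
Level of 6 activity-regulated genes in every mouse, in CPM on a linear axis that starts at 0; points are mice, bars are means with SD, and the KO MEST mice carry their replicate numbers. KO MEST replicates 3 and 5 are the highest of their group for Npas4, Fos, Arc, Egr1 and Btg2, while the sham mice of both genotypes spread above most MEST mice.

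Of 21 circadian clock genes 1 rose, Per2, a repressor of the clock that light, stress and activity also induce. It was at 38.8, 46.2, 48.3, 40.8 and 45.4 CPM in WT and 59.8, 64.6, 71.7, 53.3 and 54.6 CPM in KO MEST mice, with no overlap (0.46, SE 0.081, adjusted p = 0.00342). In sham mice the difference was -0.12 (adjusted p = 0.503), and the effects differed by 0.59 (adjusted p = 0.00687). Of 19 glucocorticoid-responsive genes 1 fell, Mt2, a metallothionein, from 40.1 to 56.3 to 30.7 to 37.0 CPM (-0.50, adjusted p = 0.00199). Of 22 heat shock proteins and chaperones 3 rose, the constitutive chaperone Hspa8 (0.31), Hsp90ab1 (0.20) and the co-chaperone Dnajb5 (0.49). Hspa8, ribosomal protein genes and Gapdh have many processed copies in the genome, among which reads may have been split. Of 27 interferon and antigen presentation genes 1 rose, Stat2 (0.25). Of 31 kinases of the MAPK cascades 3 rose (5 without KO replicate 4 and 0 without KO replicates 3 and 5 together) and 2 fell. Shares called were 4.76% of clock, 5.26% of glucocorticoid-responsive, 13.6% of chaperone, 3.70% of interferon and 16.1% of MAPK genes, beside 9.92% of all genes.

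More collagen genes rose than fell in KO MEST mice, and more fell than rose in KO sham mice. Of 38 tested, 7 rose and 1 fell in MEST mice (21.1%, beside 9.92% of all genes), with a median log2 fold change of 0.26. Col6a1, a chain of the microfibrillar collagen VI, was at 30.1, 29.7, 23.6, 22.3 and 34.7 CPM in WT and 64.7, 48.2, 52.3, 38.8 and 50.9 CPM in KO MEST mice, with no overlap (0.86, SE 0.14, adjusted p = 0.0052). In sham mice it fell by 0.55 (adjusted p = 0.0162). Col4a2, of the basement membrane, was at 32.2, 38.1, 30.0, 33.5 and 39.0 CPM and 54.9, 52.8, 59.6, 39.7 and 47.2 CPM (0.55, SE 0.10) and fell by 0.59 in sham mice. Col27a1, a fibrillar chain, was at 4.79, 5.43, 4.59, 5.07 and 8.92 CPM in WT and 10.1, 12.2, 9.58, 7.38 and 8.27 CPM in KO MEST mice, where WT replicate 5 reached into the KO range (0.74). Col11a1 (0.64, adjusted p = 0.0545) and Col5a1 (0.51, adjusted p = 0.298) did not pass, again with WT replicate 5 highest of its group, and Col8a1 was the one that fell (-0.40), a call that was lost in 8 of 10 fits without single mice. In sham mice 0 collagens rose and 15 fell, where 15.4% of all genes were called. For 16 of 38 the genotype effect was more positive in MEST than in sham mice and for 0 more negative, beside 18.6% of all genes in either direction. The count of 7 became 12 without WT replicate 5 or KO replicate 4, 4 without WT replicates 1 or 3 or KO replicates 2 or 3, and 1 without KO replicates 3 and 5 together. The 7 genes that the study named as linked to tumour immunity, a list drawn, by the numbers of mice, from the sham groups, gave 0 calls in MEST mice (limma; 1 at an unadjusted p under 0.05, 0 by edgeR and DESeq2) and 5 lower in sham mice, the latter not independent of the choice of genes.

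Of 45 SR proteins and other splicing factors, 7 rose and 1 fell in KO MEST mice (17.8% called, beside 9.92% of all genes, median 0.13). In KO sham mice 2 rose and 22 fell, where 15.4% of all genes were called. The difference of the effects passed in 25 upwards and 3 downwards, beside 18.6% of all genes in either direction. Nono, a paraspeckle protein, was at 133, 128, 137, 128 and 137 CPM in WT and 165, 178, 174, 156 and 179 CPM in KO MEST mice, with no overlap (0.36, SE 0.051, adjusted p = 0.00108). The related RNA-binding proteins Taf15 and Ewsr1 rose by 0.43 and 0.37, and Srrm1, a coactivator of splicing, by 0.33, while Mbnl2 fell by 0.21. In sham mice Taf15, Ewsr1 and Srrm1 fell by 0.42, 0.42 and 0.54. The count of 7 became 16 without WT replicate 5, 15 without KO replicate 4 and 3 without KO replicates 3 and 5 together.

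Of 72 nuclear genes of oxidative phosphorylation 17 fell and 4 rose (29.2%, beside 9.92% of all genes, median -0.069). Atp5e, the epsilon subunit of ATP synthase, was at 59.7, 62.2, 64.7, 58.5 and 54.5 CPM in WT and 41.9, 40.7, 36.5, 41.6 and 32.5 CPM in KO MEST mice, the steepest fall of the list (-0.64, SE 0.072, adjusted p = 1.41e-04). The complex I subunits Ndufb2 and Ndufa2 fell by 0.54 and 0.35, and Uqcr10 and Uqcrfs1 of complex III by 0.37 and 0.25, whereas Ndufb3 of complex I rose by 0.29. In sham mice 37 rose and 4 fell, where 15.4% of all genes were called. Atp5e, for one, rose by 1.03 there, and the effects differed by -1.66 (adjusted p = 6.13e-08). Genes of ribosomal proteins went both ways in MEST mice, 8 up and 10 down of 78 tested (23.1%, beside 9.92% of all genes). Among them were Rps13 (-0.55), Rpl39 (-0.55), Rps14 (-0.29) and Rps6 (0.33). In sham mice 40 were higher and 2 lower, beside 15.4% of all genes called there. The 8 higher became 5 without KO replicate 3, 4 without KO replicate 5, 3 without WT replicate 1 and 2 without WT replicate 4 or KO replicate 2, while 8 to 14 were lower when single mice were left out. Without KO replicates 3 and 5 together, 8 oxidative phosphorylation genes fell and 2 rose, and the ribosomal count became 1 higher and 3 lower. Of 31 proteasome subunits 6 rose, among them the ATPase Psmc3 (0.23), and 1 fell (22.6% called, beside 9.92% of all genes). The count of 6 became 3 without WT replicate 1 or KO replicate 3, 2 without KO replicate 5, 1 without WT replicate 4 or KO replicate 2 and 0 without KO replicates 3 and 5 together. Of 19 nuclear noncoding RNAs, 2 rose and 2 fell (21.1%, beside the same 9.92%). Mirg, host of a microRNA cluster expressed from the maternal chromosome, rose from 5.91 to 9.28 to 8.98 to 18.6 CPM (0.87).

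Few of the genes called in MEST mice were called in the same direction in sham mice, which were also the younger mice of each genotype. The 9 sham libraries, which share none with the MEST comparison, gave 1322 higher and 1162 lower genes of 16182 (15.4%). Of the 1593 genes called in MEST mice, 87 were called in the same direction in sham mice (5.46% of the MEST and 3.50% of the sham calls), 56 higher and 31 lower, and 365 were called in the opposite direction (22.9% and 14.7%). In 39 of the 87 the groups did not overlap in either treatment. These included Fabp7, AA465934, Ddo, C030037D09Rik, Folh1, Moxd1 and Slc12a2 from above and, at smaller size, the glycolytic Aldoa (0.30 in MEST and 0.22 in sham mice), the ubiquitin ligase Rnf220 (0.30 and 0.18) and the ribosome assembly factor Rrp7a (0.28 and 0.26). A test of the difference of the 2 effects over all 19 libraries passed in 3085 of 16596 genes (18.6%).

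The genes with the smallest p in that test included Atp5e and Rpl39, given above, and Rps14, Myeov2 (a subunit of the COP9 signalosome), Sar1b (vesicle export from the endoplasmic reticulum), Uqcrfs1, Usmg5 (an ATP synthase subunit), Gapdh and Cnot3 (of the mRNA deadenylase). Myeov2 fell by 0.32 in MEST and rose by 0.84 in sham mice. Rps14, at 111 to 145 CPM in WT and 98.1 to 107 CPM in KO MEST mice, fell by 0.29 and rose by 0.94. Gapdh, at 104 to 136 and 132 to 164 CPM, rose by 0.35 and fell by 0.72. Cnot3 rose by 0.46 in MEST mice, where all KO mice were above all WT mice (29.7 to 34.4 and 42.0 to 46.2 CPM), and fell by 0.37 in sham mice.

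**Figure D4:**
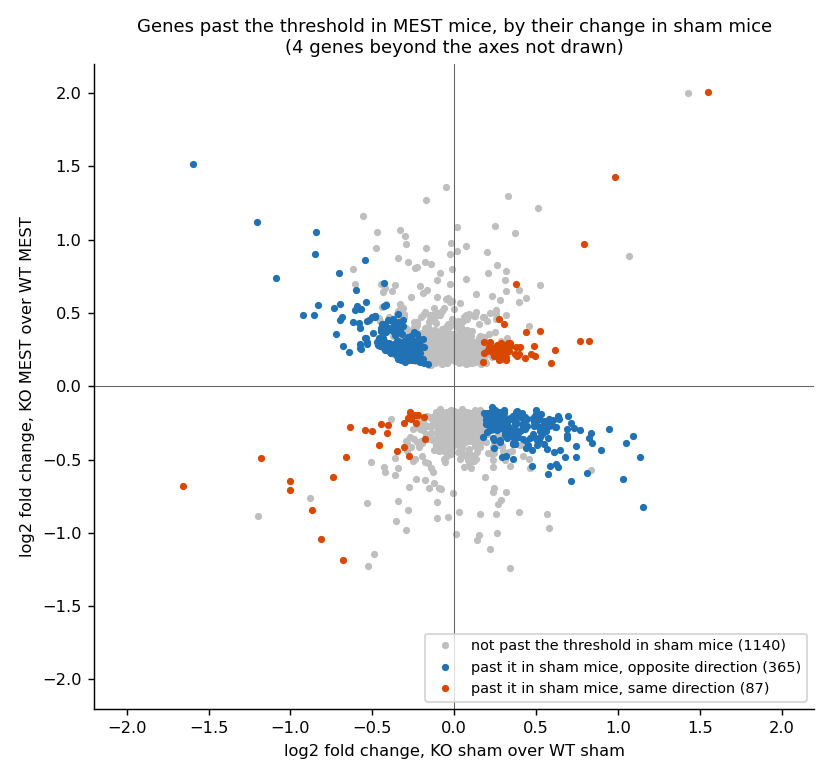
Each point is a gene called in MEST mice; the vertical axis is its log2 fold change of KO over WT in MEST mice and the horizontal axis that in sham mice, both on log2(CPM + 0.1). The 365 genes called in opposite directions fill the upper left and lower right, the 87 called in the same direction the other corners, and 4 genes lie beyond the axes.

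The calls in MEST mice followed the base composition of the transcripts. Over 15932 genes, the log2 fold change had a Spearman correlation of 0.22 with the GC share of the transcript and of -0.077 with its length. These are correlations across genes, which are not independent replicates, and in sham mice the first was 0.087. When the genes were divided by GC share into 10 bins of equal size, 17 were higher and 127 lower in the bin of lowest GC share, and 191 were higher and 34 lower in bin 9. The level of the highest bin relative to the lowest differed between single libraries, by -0.18 to 0.24 on the log2 scale among WT MEST mice and by 0.010 to 0.29 among KO MEST mice, so that the genotypes overlap in it. Among WT MEST mice, replicates 2 and 3 lay within the KO range. With the GC trend taken out of the log2 values, 1003 genes were higher and 825 lower, and the list counts became 8 lower of 17 oligodendrocyte markers, 5 higher and 1 lower of 38 collagens, 19 higher and 1 lower of 45 splicing factors, 6 higher and 20 lower of 72 oxidative phosphorylation genes and 3 lower of 19 GABA and chloride genes. Of the 122 called genes named here, 14 lost their calls in that fit: Ugt8a, Aspa, Gabrg1, Hadhb, Pln, Hk1, Trib1, Sar1b, Bmpr1b, Itm2a, Fezf2, Ndnf, Cpne7 and Timp1. Their log2 fold changes kept 48.9% to 96.9% of their size, that of Aspa for one becoming -0.27. Fabp7, Ddo, Npy, Per2, Slc12a2 and Col6a1 kept theirs. 

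**Figure D5:**
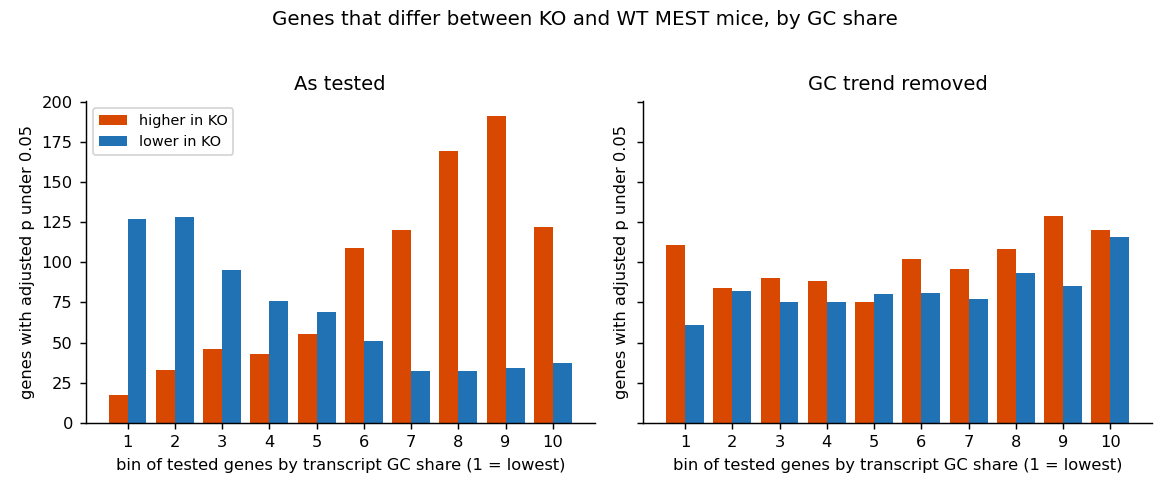
Number of genes higher (orange) and lower (blue) in KO MEST mice in each of 10 equal bins of the tested genes by the GC share of their transcripts, from the lowest (1) to the highest (10). As tested, lower calls lead in the bins of low GC share (127 against 17 in bin 1) and higher calls in those of high GC share (191 against 34 in bin 9), and with the GC trend removed they are more even.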

How the data were processed

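Poly(A)-selected RNA libraries (stranded TruSeq kit) were sequenced from 19 mice. Per the labels and methods, the authors used Trimmomatic 0.39 for trimming, HISAT2 2.2.1 for alignment (mm10) after removal of ribosomal RNA reads, and featureCounts (Subread 2.0.3) for gene counts, and they deposited DESeq2-normalised values (DESeq2 1.36.0), a signal equal to reads divided by 1 size factor per library, in separate WT and KO tables. The settings for strand and multiply mapped reads are not given in the sources used here. The tables also hold the authors' fold changes and p-values, which were not used. In each column 100% of the values were whole multiples of 1 read (tolerance 0.01), so reads in genes could be recovered. Of 24421 gene symbols per table, 27 had been turned into dates and were left out (at most 0.38% of a library).

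Values were divided by column totals and TMM factors over the 19 libraries (edgeR 4.0.16) to give CPM, since the WT and KO tables had been scaled apart. Genes with at least 0.2 CPM in at least 5 of the 10 MEST libraries (4 of 9 sham libraries, 4 of 19 for the difference of the effects) were tested on log2(CPM + 0.1) with limma 3.58.1 (empirical Bayes, trend and robust), Benjamini-Hochberg adjusted, at 0.05. The p-values measure the spread between mice. edgeR and DESeq2 1.42.0 on recovered reads, other scalings, pseudocounts of 0.5 and 1 CPM, filters, GC and length trends removed (loess), a replicate block, thinned reads and leaving out mice were alternatives. The script was tested on simulated data.

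The mice were grouped by their labels. The members, the 46 gene lists and the tests were chosen with earlier results of these data known. Genes were named by rule: the fatty acid binding family; the 15 largest changes in each direction among called genes with no overlap and a mean of at least 2 CPM; up to 4 members of each list per direction; called genes within 10 Mb of Fabp7; the 10 most significant genes shared with sham mice and the 10 for the difference of the effects; and the Fos, Jun, Egr and related factors, any member. Slfn8 and Arc were named after their values were seen. Some genes that the rule takes are not reported here. Of 24394 genes, 23350 matched the annotation (GENCODE vM21 names) directly and 656 by a synonym. Of 15 genes of the mitochondrial genome, 0 were among the rows. Fitted changes of genes near 0 depend on the pseudocount.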

Additional observations from a re-analysis of the deposited data

Results flagged for a closer look

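The levels of the 136 genes named in the text were looked at in both MEST groups for a mouse whose gap to its nearest neighbour was large against the range of the group. This was met in 16 of 272 groups (5.88%), and chance gives about 1 in 20. Among WT MEST mice, 1 mouse stood above the other 4 for Fabp5 in replicate 1 (102 CPM, next 89.5), Ado in replicate 2 (92.1 CPM, next 82.7), Col27a1 in replicate 5 (8.92 CPM, next 5.43) and Col11a1 in replicate 5 (11.2 CPM, next 6.33). Among WT MEST mice, 1 mouse stood below the other 4 for Plk3 in replicate 4 (8.15 CPM, next 10.5) and Col1a1 in replicate 3 (7.86 CPM, next 10.3). Among KO MEST mice, 1 mouse stood above the other 4 for Fabp5 in replicate 2 (135 CPM, next 107), 1110001J03Rik in replicate 1 (8.38 CPM, next 5.31), Gpnmb in replicate 2 (7.24 CPM, next 4.55), Jund in replicate 1 (119 CPM, next 53.6), Cpne7 in replicate 2 (143 CPM, next 94.7), Timp1 in replicate 2 (2.09 CPM, next 0.566), Kcnc2 in replicate 4 (169.9 CPM, next 137) and Col8a1 in replicate 4 (10.5 CPM, next 7.56). Among KO MEST mice, 1 mouse stood below the other 4 for Gpr34 in replicate 5 (11.5 CPM, next 12.9) and Ewsr1 in replicate 4 (189 CPM, next 209).

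The effect of genotype differed between MEST and sham mice in 75 of the 136 genes (limma, difference of the 2 effects over 19 libraries, adjusted p under 0.05 over all genes tested), more positive in MEST mice in 42 and more negative in 33. Over all genes tested 18.6% passed, and most of the named genes were chosen because they were called in MEST mice and some for this difference, so that the count describes the choice. The values are the log2 fold change of KO over WT in MEST mice minus that in sham mice. Among the carriers of lipids and retinoids these were Fabp7 (-0.83), Fabp3 (0.88) and Crabp2 (0.90). The value of Fabp7 rests on reads near 0 in both KO groups and on the pseudocount. For genes of the largest changes the differences were Rpl22l1 (-1.03), Metrn (-0.96), 1110001J03Rik (-1.44), Cenpw (-1.36), Gm561 (-1.17), Ssc5d (1.40), Tnnc1 (0.93), Ccdc151 (0.82), Adat2 (0.57), Reep6 (0.83), Fxyd5 (1.13), Gpnmb (1.09) and Sbsn (0.82). In genes near Fabp7 the values were Ado (-0.33) and Hk1 (0.50). Among glial and vascular markers these were Tspan2 (-0.32), Ugt8a (-0.51), Aspa (-0.49), Slc4a4 (-0.39), Bmpr1b (-0.29), Selplg (0.36) and Slco1a4 (-0.24). For neuronal markers the differences were Gad1 (-0.39), Lhx6 (0.43), Wfs1 (0.60), Neurod6 (0.64) and Fezf2 (0.39). In channels and receptors the values were Gabra4 (-0.26), Gabrg1 (-0.56), Kcnip3 (0.42), Hcn3 (0.54), Kcnc2 (-0.29), Kcnab1 (-0.36) and Cacnb1 (0.43). Among genes of activity, time of day and stress these were Npas4 (2.07), Egr1 (1.40), Dusp5 (0.67), Plk3 (0.87), Fbxo33 (-0.28), Per2 (0.59), Hspa8 (0.46), Dnajb5 (0.57), Hsp90ab1 (0.33) and Stat2 (0.50). For collagens the differences were Col6a1 (1.41), Col4a2 (1.14), Col27a1 (1.83), Col11a1 (1.61) and Col5a1 (1.52). In ribosomal proteins and oxidative phosphorylation the values were Rpl39 (-1.13), Rps13 (-0.61), Rps14 (-1.23), Atp5e (-1.66), Ndufb2 (-1.02), Ndufa2 (-1.18), Uqcr10 (-0.55), Uqcrfs1 (-0.83), Usmg5 (-0.96) and Ndufb3 (0.50). Among RNA-binding and other noncoding or regulatory genes these were Nono (0.58), Taf15 (0.85), Ewsr1 (0.79), Srrm1 (0.87), Mbnl2 (-0.47), Mirg (1.22), Cnot3 (0.83), Myeov2 (-1.15), Sar1b (-0.89) and Gapdh (1.07). For lipid and other metabolism the differences were Elovl7 (-0.40), Hadhb (-0.39) and Fads2 (0.56).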

How the results depend on the processing

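The number of genes called in MEST mice (1593) moved by more than 1.5 times in 2 settings besides leaving out single mice: it was 762 with limma without the trend and robust options and 264 without KO MEST replicates 3 and 5 together, a choice made after seeing the data that also leaves 3 KO mice. Leaving out each mouse in turn gave 799 to 1935 (low without WT MEST replicates 1 and 4 and KO MEST replicates 2, 3 and 5). For the sham comparison these fits gave 1800 to 2869 and for the difference of the effects 2656 to 3490. The 5 calls within 10 Mb of Fabp7 became 3 with no filter, 8 with the length trend removed, 10 with the GC trend removed, 12 with both removed, 10 with DESeq2 on recovered reads and 1 without KO MEST replicates 3 and 5 together, and 2 to 7 without single mice, 2 without WT MEST replicate 2 or KO MEST replicates 2 or 5. The cause was not tested. The labels do not say whether mice of the same replicate number belong together. Their deviations over all genes correlated at -0.062 to 0.020, which cannot exclude a pairing that touches few genes. With a replicate block 1157 genes were called in MEST mice, 668 higher and 489 lower, and 2 near Fabp7. The count near Fabp7 was 3 with the replicate block and the length trend removed and 8 with the replicate block and the GC trend removed. DESeq2 called 1254 higher and 1085 lower genes. Of 147 called genes that the naming rule took, 55 kept their call in every setting, 55 lost it in at least 1 fit without a single mouse, 92 in at least 1 other setting, and 0 changed sign. With reads thinned to the smallest library, 1532 genes were called in MEST mice, and 6 of the 122 called genes named in the text, with mean levels of 0.486 to 66.3 CPM, lost their call.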
